A study of Mus musculus with 9 samples.

Results

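The brains of 18-month-old KM mice, an outbred stock, were compared between animals given GRP-E1F2 and animals given saline, gene by gene wherever the 9 libraries of the study averaged 1 TPM or more. This rule took 13301 of the 22192 genes in the table, from Lamc3 at a mean of 1.00 TPM just inside it to Smim41 at 0.998 TPM just outside. TPM is a read density per gene length, scaled to the same total in every library. GRP-E1F2 is a polysaccharide fraction of ginseng root, which the mice received by gavage at 200 mg/kg every 2 days for 4 weeks. The 18-month saline group had saline on the same schedule, and so did a group of 5-month-old mice, which entered the tests only through its spread. All mice are labelled male, and no allele or other agent is named for any group. Each group held 3 libraries. The labels call them parallel samples without naming separate animals, so p-values reflect no more than the scatter among these libraries, part or all of which may be technical. The table holds no counts, so the depth of the libraries is unknown.

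The comparison turned on the cerebellum, the part of the hindbrain that tunes movement and balance. Its output neurons, the Purkinje cells, receive input from granule cells, small and very numerous neurons whose axons form the parallel fibres. Granule cells release cerebellins, secreted proteins that hold parallel fibre synapses on Purkinje cells together, and Purkinje cells carry large stores of calcium and the proteins that buffer it. Bergmann glia are the astrocytes that surround Purkinje cells. Because these cells have no close counterpart in the forebrain, many of their genes are read almost nowhere else in the brain, while others, such as the calcium buffers, are shared with forebrain neurons.

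The libraries carried brain RNA by their markers, although the extraction protocol speaks of retina. The neuronal gene Snap25 lay between 2448 and 3573 TPM, the myelin gene Mbp between 2421 and 4317 TPM, and the astrocyte gene Slc1a2 between 49.3 and 93.9 TPM, while the rod genes Gnat1 and Pdc did not exceed 0.317 TPM. Against the labelled sex, 4 genes of the Y chromosome (Uty, Kdm5d, Eif2s3y and Ddx3y) did not exceed 0.174 TPM in any library. A library had values above 0 at 16715 to 16962 genes. One library of each group sat midway between its partners: where the partners differed by 1.3-fold or more on TPM + 1, young library 3 lay between them at 87.7% of genes, saline library 2 at 89.7% and GRP-E1F2 library 3 at 91.2%, against 17.6% to 31.4% for the other libraries. A library close to the average of its partners adds little scatter of its own, so standard errors and p-values with 3 libraries may be too small. Results are therefore given with 3 libraries per group and also with 2 per group, without those 3 libraries. In what follows saline and GRP-E1F2 libraries are those of 18 months, in the order 1, 2 and 3, unless the young group is named.

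GRP-E1F2 libraries had lower levels than saline libraries at 1777 genes and higher levels at 994 genes. These genes passed an adjusted p of 0.05 (Benjamini-Hochberg) in limma, a linear model fitted to log2(TPM + 1), and in what follows "rose" and "fell" mean that a gene passed. The 2771 genes were 20.8% of those tested, with 13.4% having fallen and 7.47% having risen. With 2 libraries per group 248 genes passed, 1.86% of those tested. Of these 234, or 1.76%, fell and 14, or 0.105%, rose, and all had moved the same way with 3 libraries. At an unadjusted p under 0.05, 1792 genes differed with 2 libraries. The counts rested in part on single libraries, since 1345 genes passed without saline library 2, 1376 without GRP-E1F2 library 3, and 638 rather than 994 rose without young library 3. The balance of the 3-library counts depended on scaling, since quantile normalisation gave 1466 risen and 1470 fallen genes. Fold changes are differences of log2(TPM + 1), which understate the change of low genes.

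All 15 genes of the granule cell list fell, with a median log2 fold change of -2.66, and 13 of them also with 2 libraries. Cbln3, a cerebellin known from cerebellar granule cells, was at 277, 277 and 274 TPM in the saline libraries and 0.117, 0.111 and 0.343 TPM in the GRP-E1F2 libraries, log2 fold change -7.87 (SE 0.12, adjusted p = 2.1e-09). Gabra6, the granule cell subunit of the GABA-A receptor, was at 102, 95.7 and 92.8 TPM and 1.59, 1.58 and 0.886 TPM, log2 fold change -5.39 (SE 0.16, adjusted p = 1.92e-07). Every GRP-E1F2 library lay far below every saline library at both genes, and the young libraries were higher still, at 363, 509 and 434 TPM for Cbln3 and 146, 219.9 and 181 TPM for Gabra6. Cbln1, the cerebellin that bridges parallel fibres to Purkinje cells, went from 339, 364 and 376 TPM to 10.1, 15.7 and 12.5 TPM, log2 fold change -4.73 (SE 0.15, adjusted p = 2.9e-07). Neurod1, a transcription factor of differentiating and mature granule cells, went from 83, 82.8 and 86.5 TPM to 5.24, 3.701 and 5.14 TPM, log2 fold change -3.91 (SE 0.13, adjusted p = 3.5e-07). The libraries of a group stood close together at both genes, and the groups did not overlap. Crtam, an adhesion molecule also known from lymphocytes, was at 9.87, 10.6 and 10.8 TPM with saline and listed at 0 in all 3 GRP-E1F2 libraries (adjusted p = 4.14e-07). Fat2, a giant protocadherin of parallel fibres, went from 9.88, 9.83 and 10.9 TPM to 0.00854, 0 and 0 TPM. Barhl1 and Rab37 fell with 3 libraries only, and Gabrd, the extrasynaptic GABA-A subunit that forebrain granule cells also make, fell least of the list, from 94.1, 89.9 and 93.01 TPM to 52.5, 60.4 and 56.3 TPM, log2 fold change -0.70 (SE 0.07, adjusted p = 0.000211). These are levels in bulk tissue, in which less cerebellar tissue in the sample, fewer cells of a type and less RNA per cell cannot be told apart.

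The start regions of Gabra6, Cbln3 and Pcp2, 3 of the genes with the largest falls, are shown because these genes mark the 2 neuron types most plainly. They are the 250 bases before the annotated start in RefSeq (GRCm38.p6, the same build as mm10), on the minus strand at chr11:42321073-42321322 for Gabra6, chr14:55884257-55884506 for Cbln3 and chr8:3625548-3625797 for Pcp2, where the most upstream of 4 starts was taken. They read 5′ to 3′ along the gene, and capitals mark matches on either strand to AGGTCA (reverse complement TGACCT), the core that nuclear receptors such as Rora recognise, to CAGCTG, an E-box, or to TTGGCA (reverse complement TGCCAA), the core that nuclear factor I recognises.
Gabra6: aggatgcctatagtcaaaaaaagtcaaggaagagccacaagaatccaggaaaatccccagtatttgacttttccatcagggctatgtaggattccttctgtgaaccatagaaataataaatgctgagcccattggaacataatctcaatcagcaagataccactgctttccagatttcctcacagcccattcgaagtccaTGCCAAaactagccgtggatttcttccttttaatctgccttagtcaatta
Cbln3: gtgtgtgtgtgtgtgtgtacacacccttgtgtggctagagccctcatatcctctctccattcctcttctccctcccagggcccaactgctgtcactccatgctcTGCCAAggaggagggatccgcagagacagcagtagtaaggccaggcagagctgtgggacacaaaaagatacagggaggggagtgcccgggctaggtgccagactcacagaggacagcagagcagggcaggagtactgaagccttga
Pcp2: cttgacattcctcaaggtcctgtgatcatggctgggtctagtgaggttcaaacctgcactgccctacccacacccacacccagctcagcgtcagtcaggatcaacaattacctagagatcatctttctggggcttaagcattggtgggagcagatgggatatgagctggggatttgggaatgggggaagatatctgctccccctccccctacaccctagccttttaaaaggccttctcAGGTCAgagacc
Gabra6 and Cbln3 each held 1 match, to TTGGCA on the opposite strand, which lay 50 to 45 bases before the start of Gabra6 and 146 to 141 bases before that of Cbln3. Pcp2 held AGGTCA 12 to 7 bases before its start and neither other motif. Such short words are common. Of the 32851 promoters of this length in the RefSeq table, 14.0% held AGGTCA, 13% held CAGCTG and 12.3% held TTGGCA. A match describes the sequence and is neither a bound site nor a cause of the fall.

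**Figure D1:**
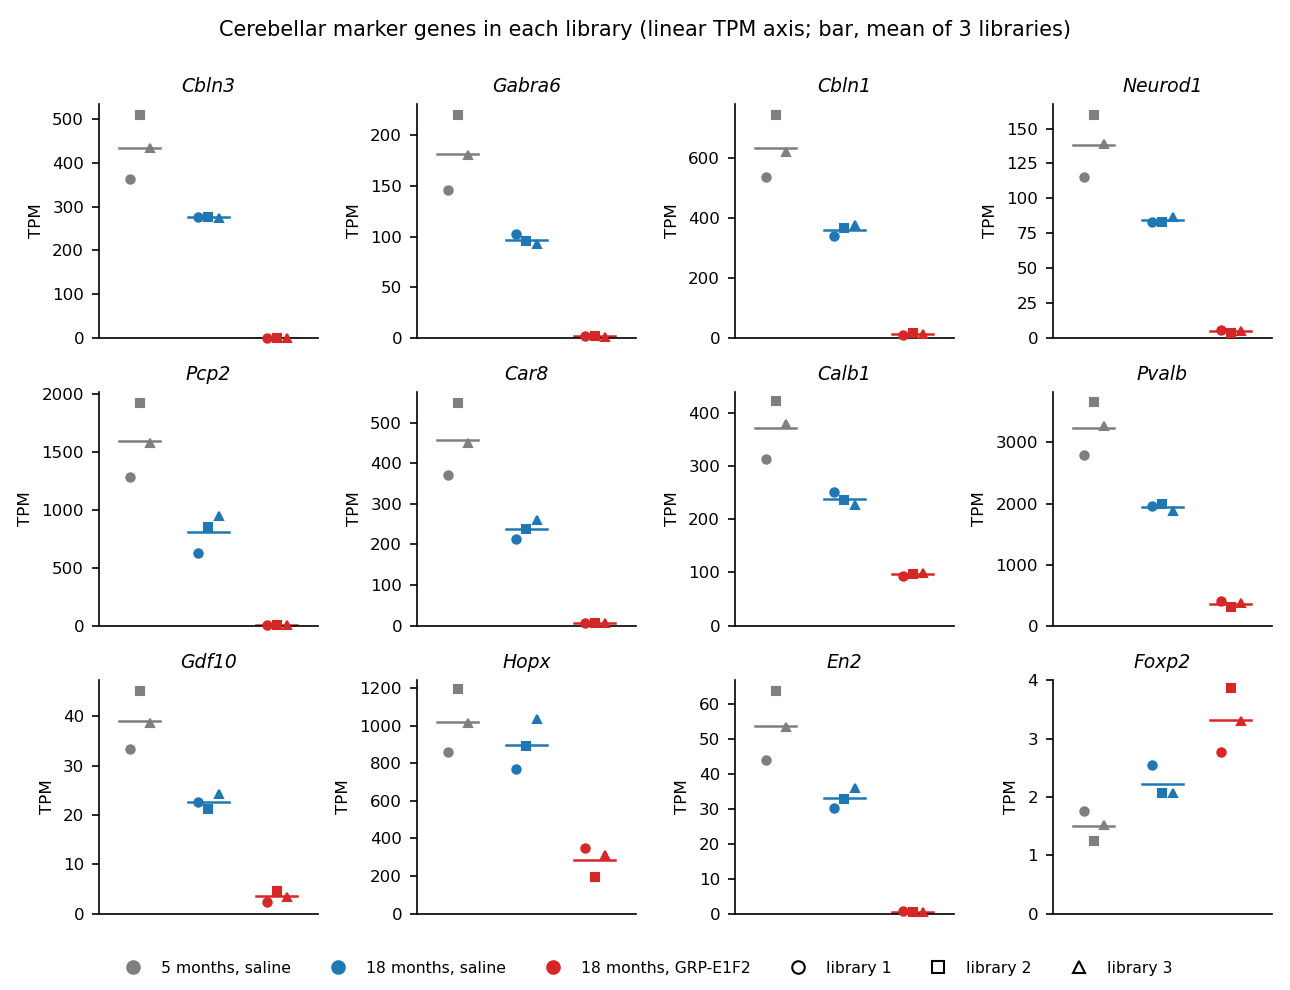
TPM of 12 cerebellar marker genes (vertical axis, linear, from 0) in each library of the young saline, 18-month saline and 18-month GRP-E1F2 groups, with symbols for libraries 1 to 3 and a bar for the mean of 3. The GRP-E1F2 libraries lie near 0 for Cbln3, Gabra6, Pcp2, Car8 and En2, well below the saline groups for Calb1 and Pvalb, and above the 18-month saline libraries for Foxp2.

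Of the 24 tested Purkinje cell genes 21 fell and 1 rose, with a median of -1.54, and 18 fell and none rose with 2 libraries. Ebf2 was below the TPM minimum, and Skor2 reached it only through the young libraries. Pcp2, a G protein regulator made in Purkinje cells and retinal bipolar cells, went from 627, 846 and 947 TPM to 3.16, 9.09 and 5.73 TPM, log2 fold change -6.92 (SE 0.30, adjusted p = 1.61e-06). Car8, a carbonic anhydrase relative that binds the calcium release channel Itpr1, went from 213, 239 and 259.5 TPM to 5.64, 6.11 and 5.73 TPM, log2 fold change -5.12 (SE 0.13, adjusted p = 7.86e-08). Ppp1r17, a phosphatase inhibitor of Purkinje cells, went from 65.7, 66.9 and 62.7 TPM to 0.732, 1.06 and 0.538 TPM, log2 fold change -5.23 (SE 0.13, adjusted p = 7.86e-08). All GRP-E1F2 libraries lay far below the saline libraries at these 3 genes. Calb1 and Pvalb, which other neurons also use, had smaller fold changes. Calb1, the calcium buffer calbindin of Purkinje and many forebrain neurons, went from 250.3, 235 and 227 TPM to 92.7, 97.9 and 99.5 TPM, log2 fold change -1.29 (SE 0.099, adjusted p = 4.67e-05). Pvalb, the buffer parvalbumin of Purkinje cells and fast-firing interneurons, went from 1964, 1992 and 1874 TPM to 396, 307 and 365 TPM, log2 fold change -2.45 (SE 0.11, adjusted p = 2.48e-06). Calb1 thus kept 40.7% of its saline mean, against 2.46% for Car8 and 0.743% for Pcp2, and none of these genes had overlapping groups. Rora, the nuclear receptor that Purkinje cells need to survive, was at 12.9, 9.95 and 7.67 TPM and 2.81, 1.405 and 2.32 TPM, log2 fold change -1.81 (SE 0.20, adjusted p = 0.000353).

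Cacna2d2 and Foxp2 were among the Purkinje genes that did not fall. Cacna2d2, a calcium channel subunit, was lower in every GRP-E1F2 library at 8.96, 14.9 and 12.2 TPM against 15.01, 16.1 and 18.8 TPM, without passing (adjusted p = 0.073). Foxp2, a transcription factor also found in striatum, thalamus and cortical layer 6 neurons, rose with 3 libraries from 2.54, 2.07 and 2.06 TPM to 2.78, 3.87 and 3.29 TPM, log2 fold change 0.42 (SE 0.12, adjusted p = 0.042). With 2 libraries Foxp2 did not pass (adjusted p = 0.491).

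Other cerebellar cell types showed falls too. Of 10 genes of Bergmann glia and cerebellar interneurons 7 fell (70%, against 13.4% of all genes tested) and 1 rose (median -1.57). With 2 libraries 6 fell (60%, against 1.76%). Gdf10, a growth factor of Bergmann glia, went from 22.6, 21.2 and 24.2 TPM to 2.38, 4.64 and 3.45 TPM, log2 fold change -2.43 (SE 0.17, adjusted p = 3.1e-05). Hopx, a homeodomain protein of Bergmann glia that other astrocytes also make, went from 767, 893 and 1033 TPM to 350.0, 192 and 309 TPM, log2 fold change -1.69 (SE 0.22, adjusted p = 0.000944). Pax2, which marks young cerebellar interneurons, was at 2.48, 2.34 and 2.34 TPM and Slc6a5, the glycine transporter of Golgi and hindbrain neurons, at 1.45, 1.54 and 1.75 TPM with saline. Both were listed at 0 in every GRP-E1F2 library. Slc6a5 passed with 3 libraries only, and it reached the TPM minimum only through the young libraries. Grm2, a glutamate receptor of Golgi cells that forebrain neurons use as well, rose from 15.8, 14.7 and 16.1 TPM to 26.7, 17.05 and 21.8 TPM (adjusted p = 0.0416, with 2 libraries adjusted p = 0.459), and Ptprk and Eomes did not pass.

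Of 15 tested patterning genes of the midbrain and hindbrain 7 fell (46.7%, against 13.4% of all genes tested) and none rose (median -0.72). With 2 libraries 3 of them also fell. Gbx2, Irx2, Irx5, Hoxa5, Hoxb3, Hoxb5 and Hoxc4 reached the TPM minimum only through the young libraries. En2, the engrailed homeobox gene that keeps marking the cerebellum in adults, went from 30.2, 32.8 and 35.8 TPM to 0.578, 0.296 and 0.409 TPM, log2 fold change -4.57 (SE 0.13, adjusted p = 1.92e-07), which left 1.3% of the saline mean. Irx3, an Iroquois homeobox gene, went from 3.28, 3.53 and 3.93 TPM to 0.147, 0.293 and 0.0971 TPM, log2 fold change -1.96 (SE 0.11, adjusted p = 9.3e-06). Lbx1, a homeobox gene of dorsal hindbrain neurons, was at 2.48, 2.97 and 2.997 TPM with saline and listed at 0 in every GRP-E1F2 library. En2, Irx3 and Lbx1 had no overlap between the groups. Of the 6 Hox genes tested, which mark the more caudal hindbrain and spinal cord, none passed with either set of libraries. All 6 reached the TPM minimum only through the young libraries, where they summed to 35.14, 47.13 and 41.77 TPM. The sums were 0.1266, 3.381 and 6.002 TPM in saline and 0.5588, 0.2247 and 0.6568 TPM in GRP-E1F2 libraries. With saline levels this low a fall could hardly be seen, so the Hox genes do not show whether the caudal hindbrain was unchanged.

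The falls within the granule and Purkinje lists were deep. Of their 39 tested genes 36 fell, 31 with 2 libraries, and the median gene kept 18.6% of its saline mean. Under 5% was left at 11 genes and under 25% at 23. Together these 39 genes took 0.577%, 0.631% and 0.662% of all TPM in the saline libraries and 0.146%, 0.128% and 0.140% in the GRP-E1F2 libraries, while the young libraries had 0.877%, 1.21% and 1.05%. Each GRP-E1F2 library thus held well under the lowest saline value, and the young libraries differed among themselves more than the saline libraries did. Of the 234 genes that fell with 2 libraries 35 kept under 5%, and 9 were listed at 0 in every GRP-E1F2 library: Crtam, Skor2, Lbx1, Pax2, Tlx3, Cabp2, Ngp, Il22 and Il22b. All 1777 fallen genes kept a median of 67.3% of the saline mean, so most falls were shallow. They took 9.24% to 9.69% of TPM with saline and 6.32% to 6.38% with GRP-E1F2, while the 994 risen genes went from 6.93% to 7.03% with saline to 9.10% to 9.29%.

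**Figure D2:**
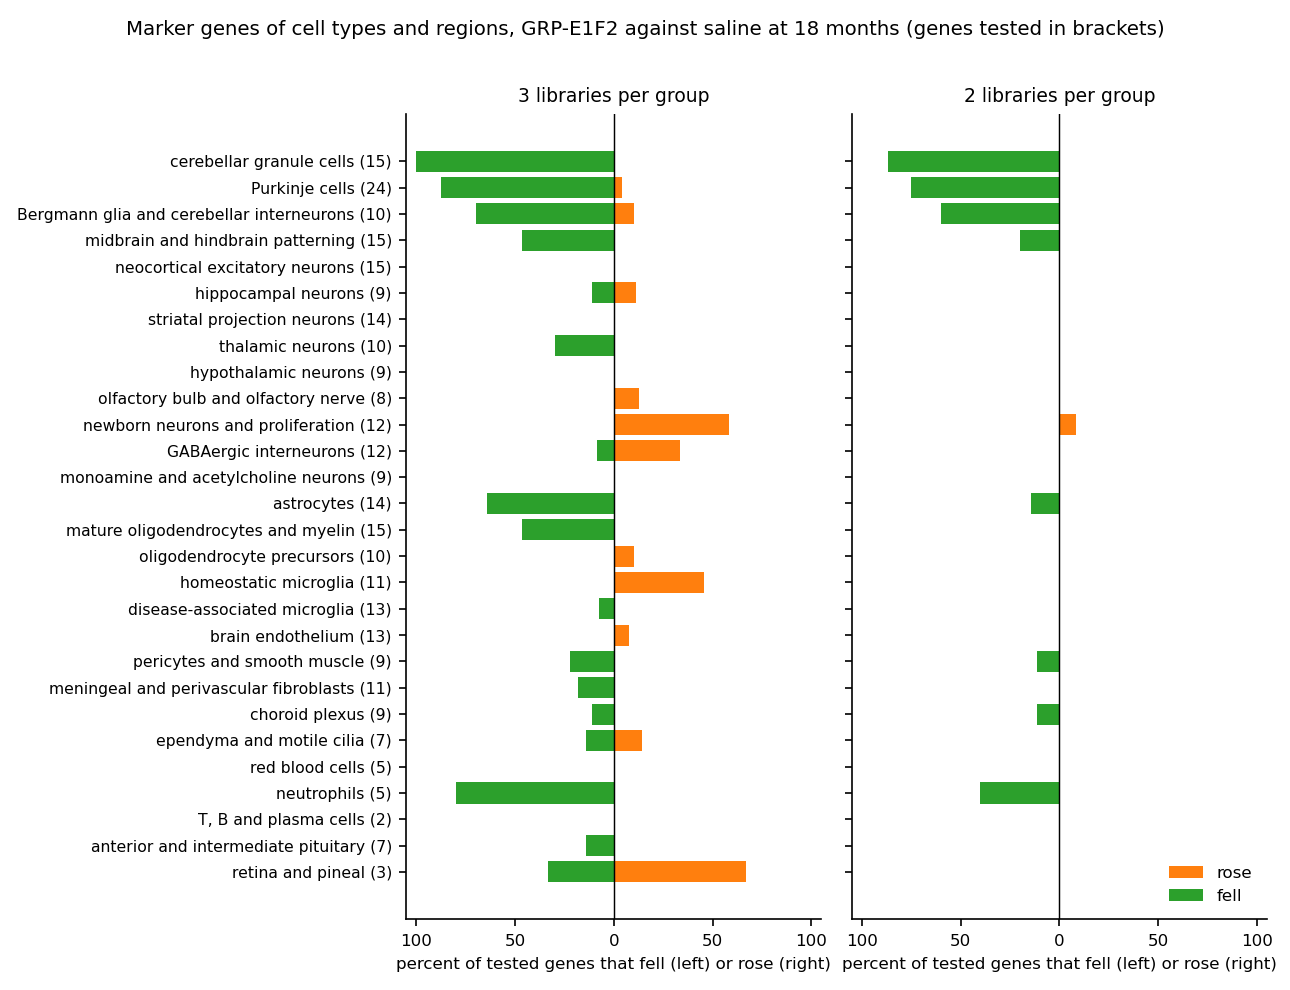
Percent of tested marker genes of each cell type or region that fell (left, green) or rose (right, orange) with GRP-E1F2, with 3 libraries per group (left panel) and 2 (right panel), and the number of genes tested in brackets. The 4 cerebellar and hindbrain lists at the top hold 50 fallen genes of 64 with 3 libraries and 40 with 2, while the neocortical and striatal lists hold none.

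Markers of forebrain regions did not show such falls. None of 15 neocortical genes (median 0.22) or 14 striatal genes (median 0.25) passed. Nor did any of 9 hypothalamic genes (median -0.15) or 9 genes of monoamine and acetylcholine neurons (median -0.125). The hypothalamic genes summed to 20.5, 45.5 and 67.8 TPM in saline and 13.1, 210 and 111 TPM in GRP-E1F2 libraries. Agrp and Ghrh reached the TPM minimum only through the saline libraries. The neocortical genes summed to 22360, 19050 and 15190 TPM in saline and 27240, 17410 and 22070 TPM in GRP-E1F2 libraries. With libraries of a group this far apart, not passing does not show that these genes were unchanged. Of 9 hippocampal genes Npy1r, a neuropeptide Y receptor, rose and Prox1, a homeobox gene of dentate granule cells, fell. Of 10 thalamic genes Prkcd, Lef1 and Synpo2 fell (30%, against 13.4% of all genes tested), none of them with 2 libraries. Prkcd, protein kinase C delta of thalamic relay neurons, was spread widely, at 17.2, 30.6 and 47.1 TPM and 13.4, 5.08 and 9.496 TPM. Striatal genes varied among libraries of a group instead, with the adenosine receptor Adora2a at 25.7, 96.5 and 62.5 TPM in the GRP-E1F2 libraries against 49.9, 44.4 and 42.9 TPM with saline. Other region markers varied the same way. The pituitary hormone gene Prl was at 0.3604, 554 and 279.6 TPM in GRP-E1F2 and 8.24, 6.96 and 7.86 TPM in saline libraries, and Ttr of the choroid plexus at 951, 15.6 and 481 TPM and 155, 782 and 1241 TPM. In both genes GRP-E1F2 library 3 lay between the other pair. Their part in the changes at other genes was not tested.

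A measure that uses neither 18-month group was available to sort the falls, because the share of TPM in granule and Purkinje genes was 0.877% in young library 1 and 1.21% in young library 2. A gene was said to follow this difference when its log2(TPM + 1) was at least 0.25 higher in young library 2, a rule chosen after the data were seen. Among all genes tested 12% did so, and as many were lower by at least 0.25. Of the 39 granule and Purkinje genes 33 did (84.6%), which restates the difference that prompted the rule. Of the 234 genes that fell with 2 libraries 179 did (76.5%) and 3 were lower, and among the 194 of them in none of the 4 cerebellar and hindbrain lists the count was 142 (73.2%). Of the 1777 genes that fell with 3 libraries 603 did (33.9%). Among the 994 risen genes 314 (31.6%) were lower in young library 2 and 22 higher. The 2 young libraries may differ in more than cerebellar RNA, so following is no proof of a cerebellar source. Not following is no proof of another source. The granule and Purkinje genes themselves differed by a median of 0.449, so a gene read only partly in cerebellum could stay under 0.25. Gabrd, Rora and Plcb4, which are in the lists and fell with 2 libraries, did not follow.

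**Figure D3:**
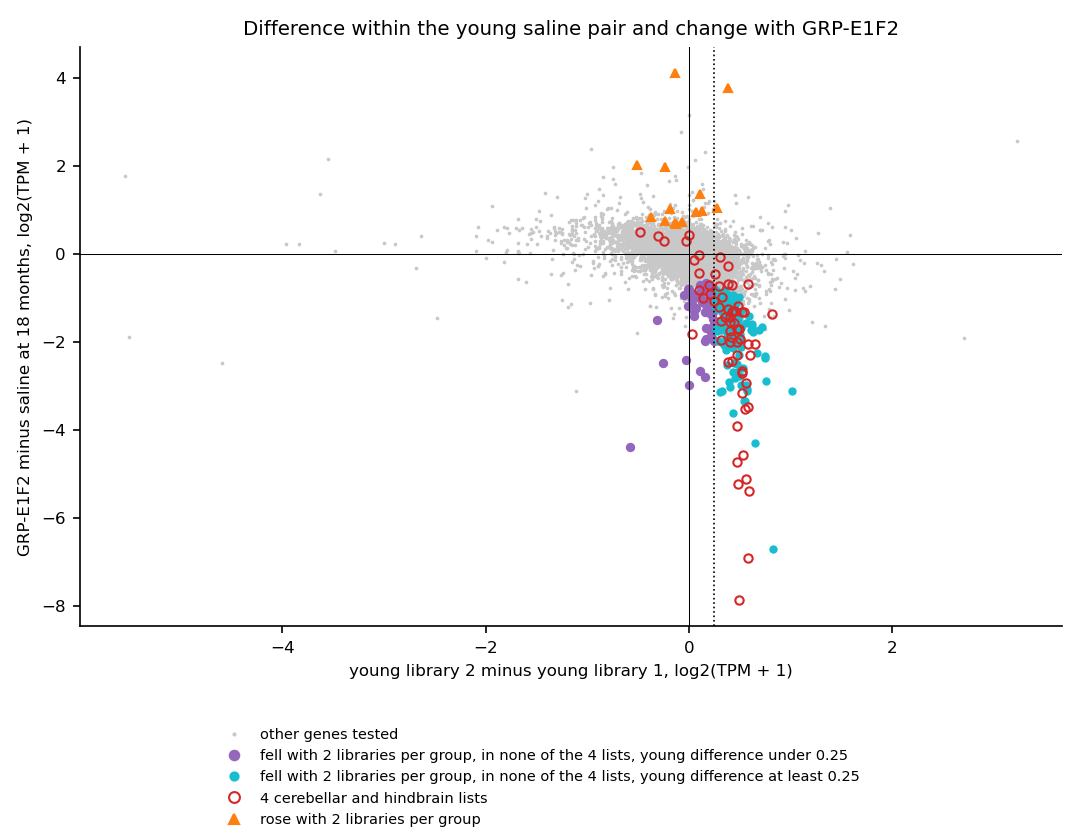
Each gene's difference between young libraries 2 and 1 (horizontal axis, log2(TPM + 1)) against its difference between GRP-E1F2 and saline at 18 months (vertical axis, same scale), with the dotted line at 0.25. Genes of the 4 cerebellar and hindbrain lists (red circles) lie mostly to the right of the line and below 0, together with 142 other genes that fell with 2 libraries (cyan), while 52 fell without following (purple, 49 between the limits and 3 to the left).

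The deepest fall outside the lists was that of Cnpy1, a secretory pathway protein linked to FGF signalling at the midbrain-hindbrain boundary. It went from 149, 121 and 103 TPM in saline libraries to 0.667, 0 and 0 TPM, log2 fold change -6.71 (SE 0.25, adjusted p = 6.19e-07). Dao, D-amino acid oxidase, which clears D-serine and is known to be most active in cerebellum and brainstem, went from 18.4, 18.4 and 21.3 TPM to 0.0482, 0.0735 and 0 TPM, log2 fold change -4.29 (SE 0.14, adjusted p = 3.28e-07). Fgf7, a fibroblast growth factor, went from 8.47, 9.63 and 8.97 TPM to 0.1205, 0.2297 and 0.118 TPM, log2 fold change -3.12 (SE 0.098, adjusted p = 2.58e-07). Only traces of these 3 genes were left in any GRP-E1F2 library, and all 3 followed the young pair. The homeobox gene Uncx went from 9.76, 11.03 and 13.9 TPM to 0.111, 0.691 and 0.478 TPM, and the repressor gene Hes3 from 9.59, 11.8 and 16.2 TPM to 0.4098, 0.142 and 0.401 TPM. Atp2a3, a calcium pump of the endoplasmic reticulum, went from 17.1, 18.4 and 21.1 TPM to 1.75, 1.34 and 1.55 TPM, log2 fold change -2.97 (SE 0.13, adjusted p = 2.03e-06). Chn2, a Rac-inactivating protein, went from 161, 157 and 155 TPM to 20.4, 26.7 and 24.5 TPM, log2 fold change -2.68 (SE 0.12, adjusted p = 2.34e-06). None of these had overlapping groups. Tlx3, a homeobox gene of hindbrain and spinal neurons, was at 8.72, 7.11 and 6.34 TPM with saline and listed at 0 in every GRP-E1F2 library.

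Family counts are to be read against all genes tested, of which 13.4% fell and 7.47% rose with 3 libraries and 1.76% and 0.105% with 2. Of 70 potassium channel genes 13 fell (18.6%) and 3 rose (4.29%), near those shares, with 5 fallen (7.14%) and none risen with 2 libraries. Kcnc1, a channel that lets neurons fire fast, went from 99.8, 102 and 110.0 TPM to 42.2, 42.7 and 41.8 TPM, log2 fold change -1.28 (SE 0.086, adjusted p = 1.95e-05). Kcng4, a silent subunit that joins other potassium channels, went from 19.1, 23.8 and 28.3 TPM to 2.19, 1.51 and 1.86 TPM, log2 fold change -3.11 (SE 0.17, adjusted p = 7.2e-06). Both were lower in every GRP-E1F2 library and followed the young pair. Kcnf1, another silent subunit, rose with 3 libraries from 23.05, 21.1 and 19.8 TPM to 48.02, 40.9 and 45.1 TPM (adjusted p = 0.00373, with 2 libraries adjusted p = 0.14). Of 23 calcium channel genes 8 rose (34.8%) and 4 fell (17.4%), none with 2 libraries. The 4 were Cacna1a, the P/Q-type channel of Purkinje cells, Cacna1g, Cacng2, an AMPA receptor partner that granule cells need, and Cacng7. Of the family, Cacna2d4 and Cacng6 reached the TPM minimum only through the GRP-E1F2 libraries and are no support for a rise of it.

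Of 13 GABA-A receptor subunit genes 6 rose and 2 fell. The fallen ones were Gabra6 and Gabrd, which granule cells combine, and they fell with 2 libraries as well. Gabra2, Gabra3, Gabra5, Gabrg1 and Gabrg3 were among the risen ones, none of which passed with 2 libraries. Gabra5, a subunit of hippocampal and cortical neurons, went from 16.5, 14.4 and 16 TPM to 27.02, 22.5 and 24.5 TPM, log2 fold change 0.62 (SE 0.081, adjusted p = 0.00103). Gabra3 went from 25.8, 22.3 and 21.2 TPM to 39.6, 34.3 and 37.6 TPM, log2 fold change 0.67 (SE 0.10, adjusted p = 0.00221). Every GRP-E1F2 library was above every saline library, young ones included, at both. Among 7 metabotropic glutamate receptors 2 fell, among them Grm4, which parallel fibres use, and Grm2 and Grm5 rose. Grm4 went from 49.5, 53.1 and 58.9 TPM to 12.2, 20.9 and 16.5 TPM, log2 fold change -1.67 (SE 0.18, adjusted p = 0.000385), and it alone of the family passed with 2 libraries. Of the synaptic vesicle genes, Vamp1 and Syt2, the forms that prevail at hindbrain synapses, fell in both fits. Vamp1 went from 514, 566 and 571 TPM to 305, 272 and 291 TPM, log2 fold change -0.92 (SE 0.095, adjusted p = 0.000257). Syt2 went from 57.1, 52.6 and 53.6 TPM to 11.8, 16.7 and 13.8 TPM, log2 fold change -1.88 (SE 0.13, adjusted p = 1.95e-05). Their relative Vamp2, used throughout the forebrain, rose with 3 libraries from 2326, 2489 and 2379.7 TPM to 2918, 2722 and 2791 TPM, log2 fold change 0.23 (SE 0.061, adjusted p = 0.0291).

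**Figure D4:**
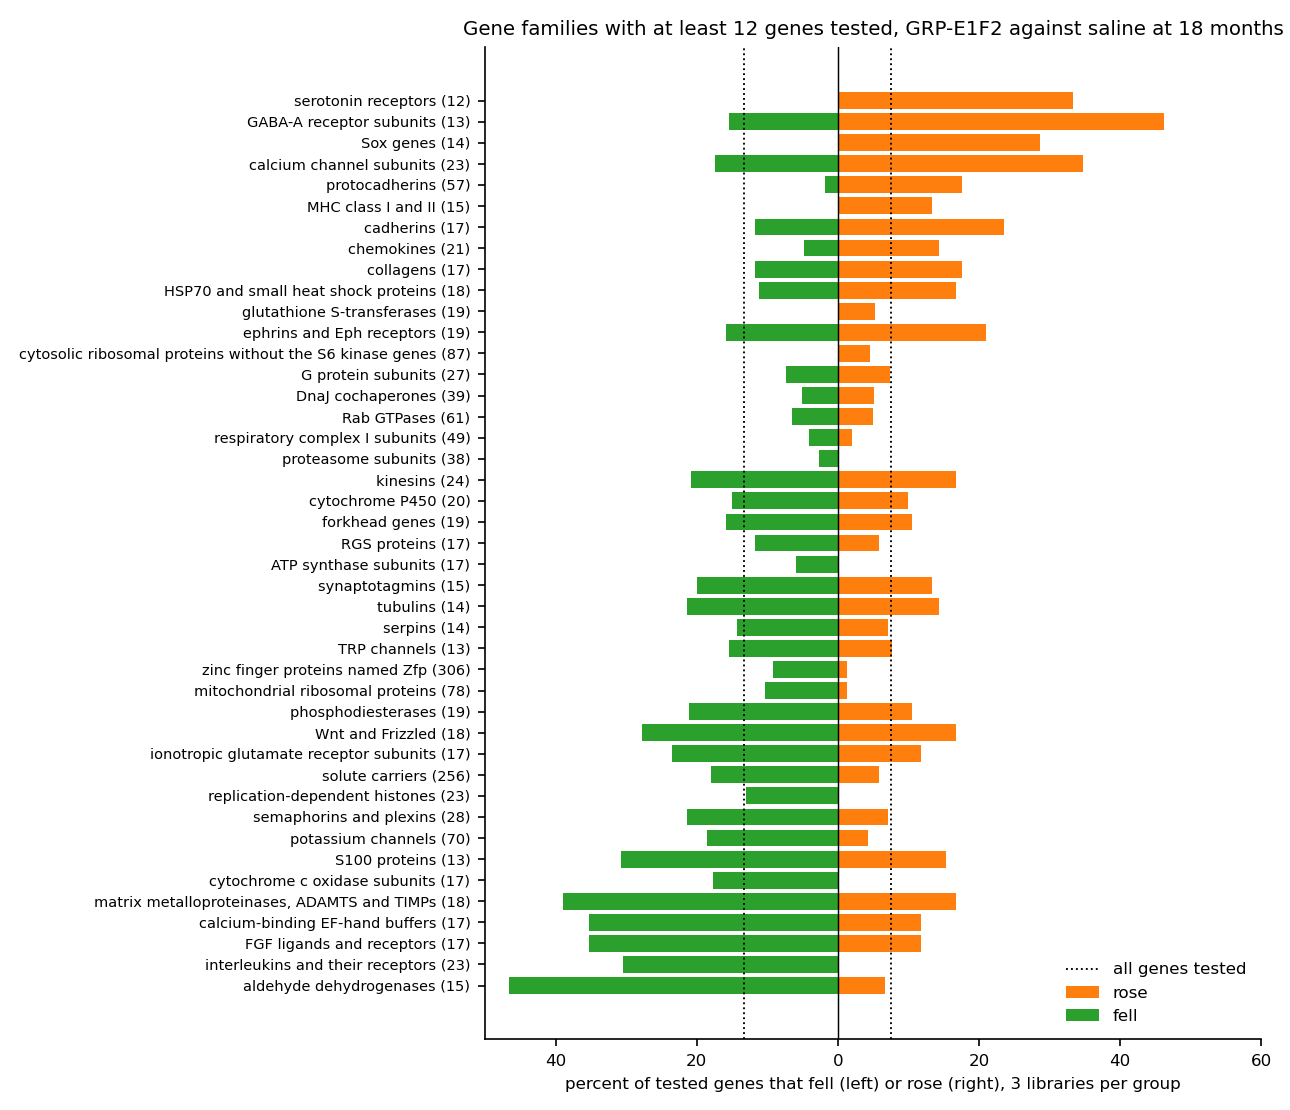
Percent of the tested genes of each family that fell (left, green) or rose (right, orange) with GRP-E1F2, 3 libraries per group, for families with at least 12 genes tested (number in brackets), ordered by the balance of rises and falls. Dotted lines mark the shares over all genes tested, 13.4% fallen and 7.47% risen. GABA-A receptor subunits show 6 risen and 2 fallen of 13, and the 23 interleukin genes show 7 fallen and none risen.

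Transcription factor families were divided as well. Zic1, Zic2, Zic4 and Zic5, which granule cells keep into adulthood, fell in both fits. Zic1 went from 80.7, 90.1 and 97.2 TPM to 16.3, 10.9 and 13.2 TPM, log2 fold change -2.66 (SE 0.16, adjusted p = 1.07e-05). All 4 Irx genes tested fell with 3 libraries, and 1 of them with 2 libraries. Irx2 and Irx5 reached the TPM minimum only through the young libraries. Both Pax genes fell with 3 libraries, as did 2 of 3 ROR receptors. Of 14 Sox genes 4 rose and none fell with 3 libraries. Sox1, a neural progenitor gene, had the smallest p of these and went from 5.46, 5.18 and 6.04 TPM to 9.74, 8.91 and 9.66 TPM, log2 fold change 0.67 (SE 0.072, adjusted p = 0.000339). With 2 libraries it did not pass (adjusted p = 0.0925). The zinc finger genes named Zfp had 28 fallen and 4 risen of 306, but under quantile normalisation this turned to 15 fallen and 22 risen.

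Of the families listed by symbol, 4 of transporters, calcium buffers and enzymes were picked for description after their values were seen, as were Hpcal1, Slc41a3, Slc16a11, Mmp24 and Adamts10 among their genes. Of 256 solute carriers 46 fell (18%) and 15 rose (5.86%), near the shares over all genes, and the 4 falls with 2 libraries (1.56%) were fewer than the 1.76% over all genes. Those 4 were Slc41a3, Slc1a6, Slc22a4 and Slc16a11. Slc1a6, the glutamate transporter of Purkinje cell spines, went from 30.3, 33.01 and 38.03 TPM to 6.36, 5.504 and 6.28 TPM, log2 fold change -2.30 (SE 0.14, adjusted p = 1.38e-05). Of 17 EF-hand calcium buffers 6 fell (35.3%) and 2 rose, with Pvalb, Calb1, Hpcal1 and Cabp2 having fallen with 2 libraries. Cabp2 reached the TPM minimum only through the 18-month saline libraries and is no support for a fall of the family. Slc1a6 had groups far apart and followed the young pair, as did Cabp2, which was listed at 0 in every GRP-E1F2 library. Of 18 matrix metalloproteinases, ADAMTS proteases and TIMPs 7 fell (38.9%) and 3 rose, and Timp4, Mmp23, Mmp24 and Adamts10 fell with 2 libraries. Timp4, a protease inhibitor in the Bergmann glia list, went from 83.97, 99.3 and 109 TPM to 21.1, 30.1 and 25.8 TPM, log2 fold change -1.89 (SE 0.15, adjusted p = 5.54e-05). Of 15 aldehyde dehydrogenases 7 fell (46.7%) and 1 rose. Aldh3a1 of the 15 reached the TPM minimum only through the 18-month saline libraries and is no support for a fall of the family. Aldh1a1, which makes retinoic acid, went from 23.7, 29.1 and 35.1 TPM to 9.37, 9.28 and 9.04 TPM, log2 fold change -1.55 (SE 0.15, adjusted p = 0.000158), and was the family's call with 2 libraries. The saline libraries were ordered alike at Timp4 and Aldh1a1, with library 1 lowest, and every GRP-E1F2 library was lower still.

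Astrocyte and myelin genes fell in part. Of 14 astrocyte genes 9 fell (64.3%, against 13.4% of all genes tested), with a median of -0.40. Aqp4 and Aldoc also fell with 2 libraries (14.3%, against 1.76%). Aldoc, the aldolase of astrocytes and of a striped subset of Purkinje cells, went from 1074, 1129 and 1229.5 TPM to 603, 609 and 605 TPM, log2 fold change -0.91 (SE 0.08, adjusted p = 9.99e-05). Aqp4, the water channel of astrocyte end-feet, went from 21.5, 21.1 and 22.8 TPM to 9.75, 11.8 and 11.6 TPM, log2 fold change -0.93 (SE 0.11, adjusted p = 0.000689). Both followed the young pair, and their groups did not overlap. Gfap was at 49.96, 71.1 and 93.9 TPM and 46.1, 36.97 and 42.02 TPM, log2 fold change -0.73 (SE 0.19, adjusted p = 0.0269), and did not pass with 2 libraries (adjusted p = 0.334), and Slc1a2, the main astrocyte glutamate transporter, did not pass (adjusted p = 0.217). Of 15 myelin genes 7 fell (46.7%) and none passed with 2 libraries. Mbp, myelin basic protein, went from 2956, 3210.4 and 3223 TPM to 2421, 2586 and 2478 TPM, log2 fold change -0.33 (SE 0.057, adjusted p = 0.00469), and Mobp did not pass.

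Of the 234 genes that fell with 2 libraries, 52 were in none of the 4 lists and did not follow the young pair. That number rests on the limit of 0.25, since 19 of the 52 lay between 0.2 and 0.25, and a limit of 0.2, tried after the data were seen, left 33 and one of 0.1 left 17. The 52 kept a median of 34.5% of the saline mean. Neutrophil genes were among them. S100a9, which forms calprotectin with S100a8, went from 54.4, 34.8 and 14.7 TPM in saline libraries to 0.857, 0 and 0.842 TPM, log2 fold change -4.38 (SE 0.42, adjusted p = 0.000182). Ngp, a neutrophil granule protein, was at 7.88, 7.04 and 3.63 TPM with saline and listed at 0 in every GRP-E1F2 library (adjusted p = 4.17e-05). The young libraries had 3.51, 2.02 and 2.38 TPM for S100a9 and 0.601, 0.783 and 0.766 TPM for Ngp, so the 18-month saline libraries stood apart from both other groups. Saline library 1 was highest and library 3 lowest at both. Of 13 genes listed for neutrophils 5 passed the TPM minimum, and S100a8, S100a9, Ngp and Camp of these fell. Ngp, Camp and Lcn2 reached the minimum only through the 18-month saline libraries, so the count is no support for a fall of the list. S100a8 and Camp did not pass with 2 libraries, and Lcn2 passed with neither. The other 8, among them Elane, Mpo and Ly6g, were below the minimum. The sum over 5 red blood cell genes was 1756, 2455 and 2792 TPM in saline and 2842, 1154 and 1988 TPM in GRP-E1F2 libraries. Whether blood cells remained in the tissue to different extents was not tested.

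Il22, the interleukin of innate and helper lymphocytes that acts on epithelia, was at 3.46, 4.22 and 5.48 TPM with saline, at 12.9, 12.7 and 12.5 TPM in young libraries and listed at 0 in all GRP-E1F2 libraries (adjusted p = 4.31e-06). Il22b, its near copy, was at 7.57, 5.099 and 3.21 TPM with saline and also listed at 0. Reads of this pair may have been shared between them in a way that is not known, so their sum is safer, and it was 11.03, 9.32 and 8.695 TPM with saline. Of 23 interleukin and receptor genes 7 fell (30.4%, against 13.4% of all genes tested) and none rose. Il16, Il20rb, Il22, Il22b and Il4ra fell with 2 libraries (21.7%, against 1.76%). Il22b and Il17rb reached the TPM minimum only through the 18-month saline libraries and are no support for a fall of the family. Il22 and Il22b are counted as 2 falls although their reads may have been shared. Il16 went from 12.9, 13.2 and 14.02 TPM to 1.28, 0.957 and 1.06 TPM, log2 fold change -2.78 (SE 0.12, adjusted p = 1.8e-06). Il16 and Il20rb followed the young pair, and Il4ra did not.

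Other genes outside the rule had varied roles, and Galnt15, Slc41a3, Unc5b and Eno1b among them lay just under its limit, at 0.24, 0.23, 0.22 and 0.21 on the log2(TPM + 1) scale. Galnt15, an enzyme that starts O-linked sugar chains, went from 6.59, 6.54 and 5.65 TPM to 0.801, 0.808 and 0.908 TPM, log2 fold change -1.98 (SE 0.095, adjusted p = 3.21e-06). Slc41a3, a magnesium transporter relative, went from 13.1, 12.98 and 13.2 TPM to 3.98, 3.21 and 3.38 TPM, log2 fold change -1.64 (SE 0.087, adjusted p = 5.41e-06). Otx2, a homeobox gene of the choroid plexus and midbrain, went from 4.95, 3.72 and 2.94 TPM to 1.05, 0.641 and 0.784 TPM, log2 fold change -1.40 (SE 0.15, adjusted p = 0.000331). The groups were well apart at Galnt15 and Slc41a3, and saline libraries varied more at Otx2. Crhr1, the receptor of corticotropin-releasing hormone, went from 24.7, 25.4 and 24.01 TPM to 13.6, 14.9 and 12.5 TPM, log2 fold change -0.81 (SE 0.073, adjusted p = 0.000126). Unc5b, a netrin receptor, went from 9.29, 10.6 and 11.3 TPM to 4.33, 3.69 and 4.15 TPM, log2 fold change -1.17 (SE 0.093, adjusted p = 6.03e-05). Des, the muscle filament desmin of vessel walls, went from 2.63, 2.98 and 3.04 TPM to 0.904, 0.692 and 1.004 TPM, log2 fold change -1.06 (SE 0.097, adjusted p = 0.000141). The shallowest of the 234 falls by level left was Lrrc49, which kept 62.7% of its saline mean. Eno1b, a copy of the glycolytic enzyme gene Eno1, went from 215, 202 and 203 TPM to 104, 105 and 102 TPM, log2 fold change -0.99 (SE 0.062, adjusted p = 1.3e-05). Eno1 itself rose with 3 libraries from 230.0, 262 and 309 TPM to 409, 393 and 404 TPM, log2 fold change 0.60 (SE 0.11, adjusted p = 0.00475). The sum of the pair went from 445, 464 and 512 TPM to 513, 498 and 506 TPM, so the opposite moves of these near copies largely cancelled, and no source used here says how shared reads were divided.

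Rises were fewer. With 2 libraries 14 genes rose, of which 11 were above all 6 saline libraries of both ages. Igfbpl1, a growth factor binding protein of newborn neurons, went from 0.1397, 0.389 and 0.439 TPM to 3.98, 4.85 and 4.35 TPM, log2 fold change 2.03 (SE 0.15, adjusted p = 3.66e-05). Prkca, protein kinase C alpha, went from 8.98, 9.09 and 9.64 TPM to 18.7, 20.3 and 20.8 TPM, log2 fold change 1.03 (SE 0.073, adjusted p = 2.68e-05). Ndnf, a secreted factor of cortical layer 1 interneurons, went from 1.95, 2.14 and 2.01 TPM to 5.52, 4.38 and 5.06 TPM, log2 fold change 0.98 (SE 0.091, adjusted p = 0.000147). At all 3 genes every GRP-E1F2 library was above every saline library, young ones included. Igfbpl1 reached the TPM minimum only through the GRP-E1F2 libraries, so it was tested only because it was high there. Egln3, an oxygen sensor that marks the HIF protein for removal, went from 10.8, 11.3 and 10.03 TPM to 23.2, 22.1 and 23.99 TPM, log2 fold change 1.04 (SE 0.086, adjusted p = 7.31e-05). The transcription factor Bcl11a had a log2 fold change of 0.70, the syntaxin binding protein gene Stxbp6 of 0.73, the sodium pump modulator gene Fxyd6 of 0.68, the actin regulator gene Wipf2 of 0.97 and Tmem273 of 1.99. Others were Rpl39l, Apoc3, D630023F18Rik and the predicted gene Gm14037. Rpl39l, a near copy of the ribosomal gene Rpl39, was at 2.12, 2.04 and 0 TPM with saline, 22.5, 58.7 and 34.4 TPM after GRP-E1F2 and 64.6, 58.7 and 41.9 TPM in young libraries. Reads of the pair could have been shared, and Rpl39 itself did not pass.

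Of 12 tested genes of newborn neurons 7 rose (58.3%, against 7.47% of all genes tested) and none fell with 3 libraries. With 2 libraries Igfbpl1 alone passed. Igfbpl1 and Sp8 reached the TPM minimum only through the GRP-E1F2 libraries and are no support for a rise of the list. Dlx1, a homeobox gene of GABA neuron precursors, went from 14.3, 13.7 and 13.7 TPM to 36.02, 46.3 and 40.6 TPM, log2 fold change 1.49 (SE 0.19, adjusted p = 0.000944). Dlx2, its neighbour and partner, went from 3.91, 4.103 and 4.53 TPM to 8.99, 15.1 and 11.96 TPM, log2 fold change 1.31 (SE 0.20, adjusted p = 0.00263). Sp8, a zinc finger factor of olfactory bulb interneurons, went from 0.415, 0.578 and 0.765 TPM to 2.51, 7.57 and 5.19 TPM, log2 fold change 1.85 (SE 0.28, adjusted p = 0.00236). All 3 were above both saline groups in every GRP-E1F2 library, with library 2 highest and library 1 lowest. Sp9, Meis2 and Cd24a rose too, and Sox11, Dlx5, Dlx6 and Nes did not pass. Dlx4, a tested Dlx gene outside the list, fell in both fits, from 4.68, 6.48 and 4.696 TPM to 1.01, 0.331 and 0.664 TPM, log2 fold change -1.92 (SE 0.16, adjusted p = 8.01e-05). Doc2g, a calcium sensor of olfactory bulb mitral cells, had its GRP-E1F2 libraries in the order seen at Dlx1, Dlx2 and Sp8, at 12.2, 47.5 and 31.7 TPM against 11.2, 10.3 and 9.78 TPM, and passed with 3 libraries only (adjusted p = 0.0466). Whether the olfactory bulb or striatum was taken to different extents was not tested. Among 12 genes of GABAergic interneurons Gad2, Lhx6, Crhbp and Tac2 rose and Reln, which cerebellar granule cells also make, fell, none with 2 libraries.

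**Figure D5:**
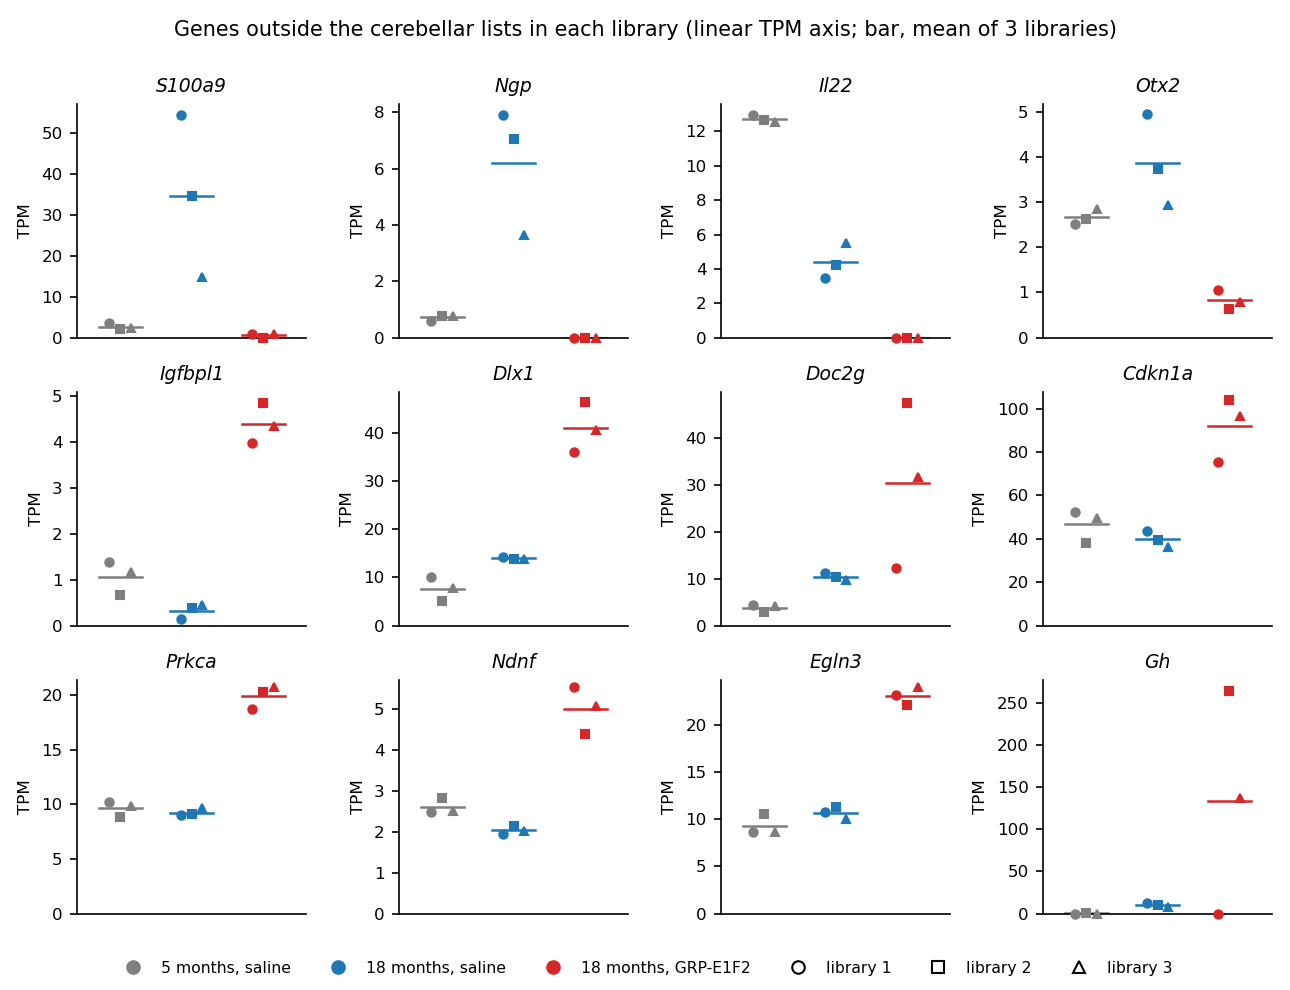
TPM of 12 genes outside the cerebellar lists (vertical axis, linear, from 0) in each library of the 3 groups, with symbols for libraries 1 to 3 and a bar for the mean of 3. S100a9, Ngp, Il22 and Otx2 are lowest with GRP-E1F2, Igfbpl1, Dlx1, Prkca, Ndnf and Egln3 are highest there, and Doc2g and Gh differ widely among the 3 GRP-E1F2 libraries.

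Rises in the following families passed with 3 libraries, where 7.47% of all genes rose, and not with 2, where 0.105% did. Of 12 serotonin receptor genes Htr1a, Htr1f, Htr2c and Htr7 rose (33.3%). Htr1f reached the TPM minimum only through the GRP-E1F2 libraries and is no support for a rise of the family. Htr2c, which neurons and choroid plexus make, went from 5.41, 6.71 and 9.05 TPM to 12.5, 18.7 and 16.5 TPM, log2 fold change 1.08 (SE 0.17, adjusted p = 0.00328). Of 57 protocadherin genes 10 rose (17.5%) and Pcdhgc3 fell. Pcdh8, an activity-regulated member, went from 5.73, 7.36 and 10.1 TPM to 16.6, 14.3 and 15.4 TPM, log2 fold change 0.94 (SE 0.16, adjusted p = 0.00384). Every GRP-E1F2 library was above every saline library of both ages at both genes. Of 11 genes of resting microglia, the immune cells of the brain, Csf1r, Cx3cr1, Sall1, Siglech and Selplg rose (45.5%, median 0.42). Cx3cr1, the fractalkine receptor, went from 10.5, 9.73 and 10.9 TPM to 13.1, 17.2 and 15.2 TPM, log2 fold change 0.50 (SE 0.12, adjusted p = 0.0162). Of 13 genes that microglia switch on in disease Csf1 alone passed, having fallen, and Trem2 did not (adjusted p = 0.367).

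Genes of senescence, inflammation and oxidative defence changed in small numbers. The series is titled for senescence. Cdkn1a, the cell-cycle inhibitor p21, rose from 43.8, 39.5 and 36.4 TPM to 75.6, 104 and 96.6 TPM, log2 fold change 1.18 (SE 0.15, adjusted p = 0.000801), and did not pass with 2 libraries (adjusted p = 0.0617). Cdkn1b, the inhibitor p27, fell from 99.6, 90.8 and 87.4 TPM to 44.8, 48.3 and 46.96 TPM, log2 fold change -0.97 (SE 0.091, adjusted p = 0.000153), also with 2 libraries. Every GRP-E1F2 library was above every saline library at Cdkn1a and below at Cdkn1b, and Cdkn1b followed the young pair. Of the 12 cell-cycle inhibitor and p53 genes tested only Cdkn2c passed beside them, having fallen with overlapping groups, while Trp53, Glb1 and Lmnb1 did not. Of 21 secretory genes of senescent cells 9 passed the TPM minimum, and Igfbp5 and Vegfa of these fell. Of 14 interferon genes 4 fell, among them Ifit1, Isg15 and Stat2, as did Myd88 and Nfkb1 of 9 genes that sense polysaccharides and microbes, and C4b and Serping1 of 9 complement genes. Myd88, the adaptor of toll-like receptors, went from 5.04, 6.14 and 5.31 TPM to 2.69, 2.02 and 2.97 TPM, log2 fold change -0.87 (SE 0.12, adjusted p = 0.0016). None of these inflammatory genes passed with 2 libraries, and none of 12 antigen presentation genes passed with either set. Gclm, Gss, Sod3 and Prdx5 of 23 antioxidant genes fell with 3 libraries and none rose. With 13.4% of all genes fallen and 7.47% risen, counts of this size in lists of 9 to 23 genes say little about the lists.

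Metabolic, hormone and activity genes changed in small numbers with 3 libraries. Of 18 cholesterol synthesis genes 4 rose, among them Hmgcs1, Sqle and Fdft1, and none fell. Of 8 thyroid hormone genes 4 rose, among them Thra, Dio2 and Slco1c1, and Hr, a corepressor that thyroid hormone induces in cerebellum, fell in both fits, from 11.9, 11.1 and 10.4 TPM to 5.49, 3.905 and 4.98 TPM, log2 fold change -1.08 (SE 0.12, adjusted p = 0.00039). Of 18 immediate early genes Fosb, Fosl2, Egr1, Nr4a1 and Nr4a3 rose, and Jun, Ier2 and Dusp1 fell. Egr1, which neuronal activity induces, went from 141, 115 and 99.8 TPM in saline libraries to 243, 153 and 197 TPM, log2 fold change 0.72 (SE 0.20, adjusted p = 0.0349), and both groups had library 1 highest. Of 87 cytosolic ribosomal protein genes 4 rose, among them Rps2, Rpl41 and Rpl39l, and none fell. The risen ribosomal genes were 4.6% of their list, fewer than the 7.47% of all genes that rose, and the other counts are of lists of 8 to 18 genes.

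Pdyn, prodynorphin, the opioid precursor in the title of the series, was at 32.1, 27.1 and 25.2 TPM in saline and 31.8, 59.3 and 44.5 TPM in GRP-E1F2 libraries, against 16.7, 3.18 and 10.1 TPM in young libraries. GRP-E1F2 libraries 2 and 3 were above all saline libraries and library 1 within their range. The log2 fold change was 0.63 (adjusted p = 0.353), and permuting the 6 values exactly gave a two-sided p of 0.2, where 0.1 is the smallest possible (exact permutation test). Of 7 opioid peptide and receptor genes Oprm1 and Oprl1 rose with 3 libraries. Of these, Oprm1 reached the TPM minimum only through the GRP-E1F2 libraries and is no support for a rise of the list. Oprm1, the mu opioid receptor, was at 1.17, 0.376 and 0.583 TPM and 2.296, 2.17 and 2.57 TPM, log2 fold change 0.99 (SE 0.16, adjusted p = 0.00343). Penk, the enkephalin precursor of striatal neurons, was at 380.0, 336 and 319.6 TPM and 226, 688 and 463 TPM (adjusted p = 0.66), and Pnoc and Oprk1 did not pass.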

How the data were processed

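RNA was sequenced from 9 libraries labelled brain, built with the NEBNext Ultra II kit on an input of 0.4 ug total RNA, per the labels' protocols. The authors deposited 1 table of TPM values per gene and library. The build mm10 and the tools GATK, HISAT2, SAMtools 0.1.18 and Picard are named, per the submitters' processing notes. The tool that made the TPM, and how reads of similar genes were shared out, are not stated in the sources. TPM keeps no depth, so no counting error can be given and a gene at 0 is only listed there.

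Values were taken as log2(TPM + 1) for 13301 genes averaging 1 TPM or more, and R 4.3.3 with limma 3.58.1 (a linear fit per gene, then trended eBayes) compared GRP-E1F2 with saline at 18 months, two-sided, with 1 spread per gene shared over 9 libraries and Benjamini-Hochberg adjustment over all genes tested. The test was tried on simulated data first. Promoters were read from the RefSeq table of GRCm38.p6, which held 3 of 5 genes looked for (Cbln1 and Car8 were not found). Tables and plots used Python 3.11.15, numpy 2.4.6, pandas 2.3.3 and matplotlib 3.10.9.

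The comparison, the 52 gene lists and the 71 families were chosen with earlier results of these data known. The rule for named genes took Pdyn, per list up to 4 genes with the smallest p and 2 with the highest TPM, the 12 largest rises and falls without overlap, the 15 largest rises and falls with 2 libraries outside the cerebellar lists, and per family the 2 largest called changes. Crtam, Fat2, Calb1, Cacna2d2, Foxp2, Slc6a5, Grm2, Adora2a, Chn2, Kcnc1, Kcnf1, Gabra3, Gabra5, Gfap, Slc1a2, Il22, Galnt15, Slc41a3, Crhr1, Unc5b, Lrrc49 and Eno1b fall outside it and were given values after these were seen, and so were further genes named to complete a count in a list or family. Results for some genes are not reported here. The labels do not say that the numbers of the libraries pair them, so no pairing was used. Correlations of same-numbered 18-month libraries around their group means were 0.051, 0.022 and 0.024. With 3 libraries per group, 1 of them midway between its partners, these cannot decide whether the libraries were paired. Alternatives were other pseudocounts, filters and scalings, a replicate block, fewer groups in the fit, robust, untrended and weighted fits, a minimum fold change, and leaving libraries out.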

Additional observations from a re-analysis of the deposited data

How the results depend on the processing

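With 3 libraries per group 2771 genes passed, 994 risen and 1777 fallen, 36 of the latter from the granule and Purkinje lists (median log2 fold change -1.8141). That median was -2.3696 with a pseudocount of 0.1 TPM, -1.2022 with 5 TPM and -1.6868 without the filter, as a larger pseudocount shrinks low values. Array weights called 12757 genes, 6459 risen and 6298 fallen, put Pdyn at 0.6981 past the threshold (adjusted p = 9.63e-10) and turned Cdkn2c to 0.0029. Its estimation did not converge, so it is given for completeness. A minimum log2 fold change of 1 left 94 genes, 4 risen and 90 fallen, with 19 cerebellar. With 2 libraries per group, a setting planned with the midway libraries already known, 248 genes passed (14 risen, 234 fallen), and without the young libraries, a setting added after the data were seen, 204 did (9 risen, 195 fallen). Leaving out 1 library gave 1345 (without saline library 2) to 3060 genes (without saline library 1), with 329 to 1212 risen and 1016 to 1848 fallen. Without GRP-E1F2 library 3 it was 1376 genes, 350 risen and 1026 fallen, and without young library 3 the risen genes numbered 638. Over these omissions 35 to 37 cerebellar genes fell, with a median of -1.932 to -1.6421, and Pdyn lay between 0.415 and 0.8547 (adjusted p 0.102 to 0.593). With the replicate number as a replicate block 2589 genes passed (990 risen, 1599 fallen, 37 cerebellar) and Pdyn had an adjusted p of 0.383. Since no pairing is stated for the libraries, this paired fit is given only here. Of 275 called genes among those taken by the naming rule, 84 also passed with 2 libraries, 189 without GRP-E1F2 library 3, 192 without saline library 2, 259 after quantile normalisation and 268 after median-of-ratios scaling. The 52 genes that fell without following the young pair numbered 67 with a limit of 0.3, 33 with 0.2, 24 with 0.15 and 17 with 0.1, limits added after the data were seen. The unknown depth limits what can be said of genes near 0.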
